A study of Mus musculus with 8 samples.

Results

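Interneurons that express the transcription factors Lhx6 and Sox6 were examined in single-nucleus RNA libraries of the mouse hippocampus. A nucleus was taken when at least 500 genes were detected, when Gad1 and Gad2 together reached 6 unique molecular identifiers (UMIs, each standing for 1 captured RNA molecule) and more than 3 times the UMIs of Slc17a7, when Lhx6 and Sox6 together reached 3 UMIs, and when Adarb2 stayed under 10 UMIs. These nuclei were thus chosen by measured UMIs of Gad1, Gad2, Slc17a7, Lhx6, Sox6 and Adarb2. The rule found 144 nuclei among 46752 hippocampal nuclei with at least 500 genes, or 0.308%. They made up 14.9% of the 968 hippocampal nuclei that met the Gad1, Gad2 and Slc17a7 conditions.

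The tissue was punched from the anterior hippocampus, left hemisphere, of mice of strain C57BL/6JN aged 3 months (young) or 21 months (old), with 2 libraries per age. Nuclei of 1 male and 1 female of the same age were mixed in equal number in each library. The labels name no transgene or treatment and do not tie libraries to animals beyond that mixing, so the p-values measure only the spread between these libraries. Matching libraries of the caudate putamen bring the series to 8 libraries and 108519 nuclei with at least 500 genes.

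Forebrain inhibitory interneurons arise mainly in the ganglionic eminences. Cells of the medial ganglionic eminence switch on Lhx6 and, downstream of it, Sox6 and Satb1, and mature into cells that make the peptide somatostatin (Sst), which mostly contact dendrites, or the calcium buffer parvalbumin (Pvalb), which include fast-firing basket and axo-axonic cells. The hippocampus also holds Lhx6 cells of neurogliaform and ivy type that share Lamp5 and Reln with interneurons of the caudal eminence, whose usual nuclear mark is Adarb2.

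The young libraries gave 39 and 67 of the nuclei and the old ones 21 and 17. Their summed UMIs were 810573 and 1559157 at 3 months and 481077 and 537553 at 21 months. Median UMIs per nucleus were 19013, 21687, 20072 and 27904, against 7963, 9487, 7910 and 8365 over all nuclei of the same libraries. No barcode was shared between these nuclei of different libraries, and 8 of the 144 barcodes recurred on some nucleus elsewhere in the series. A doublet ranking placed 10 of the 144 nuclei in the expected doublet share of their library. Both Xist and a Y-linked transcript were present in 27 nuclei, 17 of them in the second young library, and their part in the results below was not tested beyond the fits without ranked doublets.

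The rule rests on measured UMIs, so the following values describe the choice and support nothing else. Sox6, a factor that keeps medial eminence cells from taking other fates, had a median of 7 and a maximum of 83 UMIs per nucleus. Lhx6, which acts upstream of it, had a median of 1 and a maximum of 8 UMIs. Both were detected in 76 nuclei, Sox6 alone in 47 and Lhx6 alone in 21. At the edge of the rule, 28 nuclei had exactly 3 UMIs of Lhx6 plus Sox6 and 29 otherwise fitting nuclei had 2. For Gad1 plus Gad2, which encode the enzymes that make GABA, 13 nuclei had 6 UMIs and 15 nuclei just outside had 5. Adarb2 was between 5 and 9 UMIs in 8 nuclei, and 58 nuclei with 3 or more Lhx6 and Sox6 UMIs were left out because Adarb2 reached 10.

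**Figure D1:**
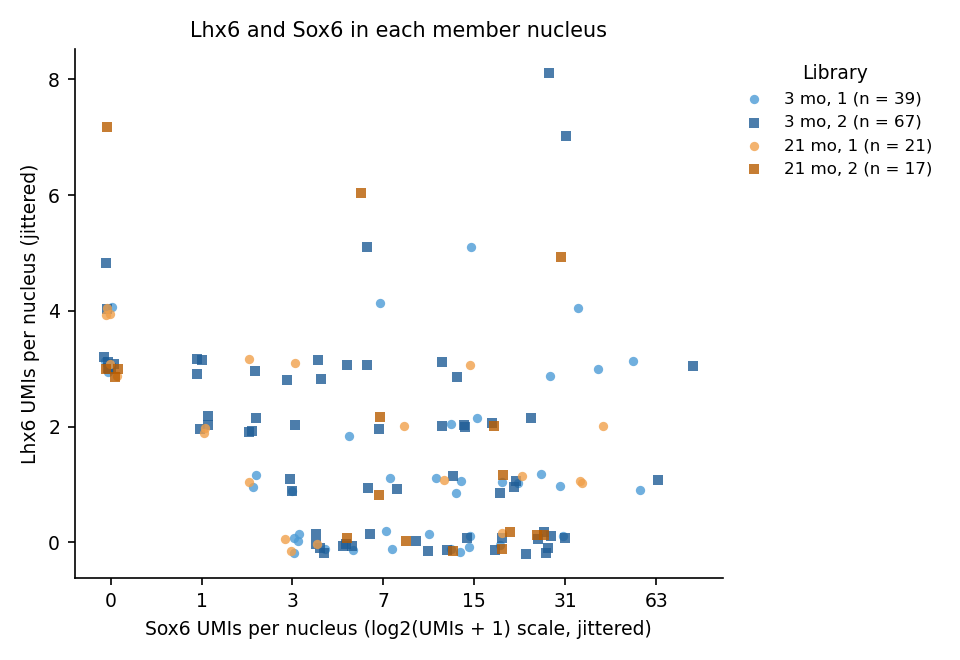
UMIs of Sox6 (x axis, log2(UMIs + 1) scale) and Lhx6 (y axis) in each of the 144 nuclei, 1 point per nucleus, coloured by library and jittered. Sox6 reached 83 UMIs and Lhx6 8, and nuclei with Sox6 alone (47) lie on the bottom edge and those with Lhx6 alone (21) on the left edge.

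Genes outside the rule that mark medial eminence interneurons were present in each library. Levels are given in CPM, the UMIs of a gene scaled to a total of 1000000 in the summed nuclei. Nxph1, a neurexin ligand of inhibitory cells, stood at 2999 and 3063 CPM in young against 3085 and 3014 CPM in old libraries. Satb1, a chromatin organizer of this lineage, stood at 276 and 175 CPM in young against 148 and 195 CPM in old libraries. Erbb4, the neuregulin receptor, ranged from 6990 to 10429 CPM, Kcnc2, a channel subunit for fast repolarization, from 2208 to 3040 CPM, and Maf, a factor of migrating interneurons, from 328 to 445 CPM. The groups of libraries overlapped by age for Erbb4 and Kcnc2. The vesicular GABA transporter Slc32a1 was measured at 21.2 to 37.2 CPM.

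Of 9 marker lists of other classes, with the genes of the rule left out, 7 summed to less in these nuclei than in the whole library in 4 of 4 libraries. The genes listed for Adarb2 interneurons summed to 72.6 to 140 CPM in these nuclei without Adarb2 itself, which the rule limits, against 596 to 906 CPM in the Adarb2 interneurons of the same libraries. Crh, Calb2 and Htr3a were at 0 UMIs in all 144 nuclei. Summed oligodendrocyte markers stood at 29.8 to 151 CPM, against 702 to 1180 CPM over whole libraries. Summed astrocyte markers stood at 437 to 730 CPM, against 1546 to 2667 CPM. In the Adarb2 interneurons the astrocyte markers summed to less in 4 of 4 libraries, at 264 to 377 CPM. The oligodendrocyte markers summed to more there in 4 of 4, at 80.0 to 188 CPM. The CA1 pyramidal marker Fibcd1 was at 0 and Slc17a7, the vesicular glutamate transporter that the rule limits, ranged from 1.86 to 20.5 CPM. The other two lists were not low. Summed medium spiny markers stood at 1282 to 1914 CPM against 678 to 853 CPM over whole libraries, and Pde10a, a phosphodiesterase gene, gave 1261 to 1894 CPM of that. Markers of oligodendrocyte precursors summed to 297, 279, 266 and 417 CPM against 246, 201, 272 and 330 CPM. Lhfpl3 gave 214 to 400 CPM of that, and Pdgfra, a defining marker, was at 7.40, 0, 0 and 1.86 CPM.

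The nearest class was the 564 hippocampal nuclei that met the same Gad1, Gad2 and Slc17a7 conditions with at least 10 Adarb2 UMIs and fewer than 3 of Lhx6 plus Sox6. Since the rule separates the 2 classes, their levels are compared as a description with no test. Rtkn2 to Slit2 below and Cnr1 to Nrg1 further on averaged at least 50 CPM in the higher class. They were taken, outside the genes of the rule, from those with the largest ratios whose libraries did not overlap between the classes. Their order in 4 of 4 libraries thus follows from that choice. Rtkn2 averaged 56.2 CPM in Lhx6 and Sox6 nuclei (range 21.0 to 138) and 1.91 CPM in Adarb2 nuclei. The cofactor gene Eya1 averaged 97.7 against 8.89 CPM, and the kinase gene Nek7 averaged 175 against 12.6 CPM. The opioid receptor gene Oprd1 averaged 78.5 CPM (58.2 to 93.8) against 11.9 CPM (5.54 to 18.5). The synaptic organizer Il1rapl2 averaged 866 against 138 CPM and the guidance ligand Slit2 averaged 377 against 73.4 CPM.

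Several synaptic and excitability genes showed the same order. The AMPA receptor subunit Gria1 averaged 5265 ± 1220 CPM (SD, n = 4 libraries) against 1705 ± 256 CPM. Kcnc2 averaged 2638 ± 461 against 1016 ± 153 CPM, and Nxph1 averaged 3040 ± 40.3 against 1345 ± 156 CPM. Acan, the core proteoglycan of perineuronal nets, was at 12.1 ± 1.85 against 0.667 ± 0.947 CPM. Crhbp, a secreted protein that binds the stress peptide CRH, was at 36.4 ± 21.1 against 0.230 ± 0.276 CPM. Each of these 5 genes was higher in 4 of 4 libraries. They were picked from the gene lists, and the share of all genes higher in 4 of 4 was not computed.

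Genes lower in the Lhx6 and Sox6 nuclei included Cnr1, the cannabinoid receptor of Cck basket cells, at 16.6 CPM (6.24 to 29.6) against 367 CPM (231 to 465). Prox1, a factor of caudal eminence interneurons, was at 7.69 against 69.9 CPM, and Htr2c, a serotonin receptor, at 9.12 against 160 CPM. Kit averaged 0.962 against 62.9 CPM, Ndnf, a marker of neurogliaform cells, 5.19 against 85.6 CPM, and Nrg1, the ligand of Erbb4, 240 against 1943 CPM. Npas1 was also lower, at 20.02 ± 6.64 against 63.1 ± 12.7 CPM.

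Somatostatin and parvalbumin transcripts were sparse in these nuclei. Sst was detected in 33 nuclei (22.9%), with at most 10 UMIs, and Pvalb in 46 (31.9%), with at most 6 UMIs. Both were present in only 2 nuclei. By library, Sst was found in 33.3% and 16.4% of young against 14.3% and 35.3% of old nuclei. For Pvalb these shares were 33.3% and 32.8% of young against 33.3% and 23.5% of old nuclei. In Slc17a7 nuclei, which should lack both, Sst was found in 0% to 3.00% and Pvalb in 0% to 0.836% per library at median depths of 24567 to 27343 UMIs. With each nucleus thinned to 10000 UMIs, which kept 36 and 62 young and 20 and 17 old nuclei, Sst remained in 5.00% to 23.5% and Pvalb in 19.4% to 30.6%.

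Subtypes called on higher counts left most nuclei without a name. A Sst group with at least 4 Sst UMIs and more than 2 times the Pvalb UMIs held 8 nuclei. A Pvalb group with at least 2 Pvalb UMIs and no fewer than of Sst held 27, and a Lamp5 group with at least 3 Lamp5 UMIs held 10. The other 99 nuclei were unassigned, so these groups are ranges of a count and not separate types. The Sst group was 10.3% and 4.48% of young against 0% and 5.88% of old nuclei, where 0 of 21 nuclei allows a share of up to 14.3%, taken as 3 counts of the total. The difference of -4.43 percentage points had p = 0.667 in the exact two-sided permutation test, whose smallest possible p with 2 libraries per age is 0.333.

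A looser split, chosen after the counts were seen, put 33 nuclei with more Sst than Pvalb UMIs beside 44 with more Pvalb than Sst UMIs and 67 with neither. The values are therefore given without a test. The Sst nuclei differed by age in Sox6, a gene of the rule, at 704 and 827 CPM in young against 0 and 297 CPM in old libraries. Those of old library 1 held 3 Sst UMIs in all. Age differences within these nuclei are thus not read as differences within 1 subtype. Elfn1, a postsynaptic protein typical of Sst cells, stood at 173, 134, 201 and 297 CPM in the Sst nuclei of young libraries 1 and 2 and old libraries 1 and 2. In the Pvalb nuclei it stood at 0, 25.5, 5.41 and 19.9 CPM. The Sst nuclei were higher in 4 of 4 libraries and the 2 sets did not overlap.

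Of 12 genes listed for Sst cells besides Sst, 5 were higher in the Sst nuclei in 4 of 4 libraries and none was higher in the Pvalb nuclei in 4 of 4. The same share over all genes was not computed, so this count and the one for Pvalb cells below are descriptions only. Pooled over libraries, Reln, a secreted glycoprotein, was at 964 CPM in Sst and 27.6 CPM in Pvalb nuclei, and the NMDA receptor subunit gene Grin3a at 912 and 51.2 CPM. Npy, which encodes neuropeptide Y, was at 72.8 and 2.44 CPM. Npas1 was at 58.7 CPM in Sst nuclei and had no UMI in the Pvalb nuclei. Each of these 4 genes was higher in Sst nuclei in 4 of 4 libraries. Crhbp (53.2 and 45.5 CPM) and Cort (13.0 and 9.75 CPM) differed little, and Pnoc, which encodes prepronociceptin, was at 3.26 CPM in Sst and 8.13 CPM in Pvalb nuclei. Chrna2, a receptor subunit of oriens cells that project to the outer dendrites, had no UMI in any of the 144 nuclei.

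Of 12 genes listed for Pvalb cells besides Pvalb, 6 were higher in the Pvalb nuclei in 4 of 4 libraries and 1, Eya4, was higher in the Sst nuclei in 4 of 4. Syt2, a calcium sensor of fast synapses, was at 149, 179, 233 and 186 CPM in the Pvalb nuclei of the same 4 libraries and at 0, 3.83, 0 and 0 CPM in the Sst nuclei. Kcnc1, the Kv3.1 channel subunit of fast-spiking cells, was at 426 CPM pooled in Pvalb and 148 CPM in Sst nuclei. The mitochondrial coactivator Ppargc1a was at 294 and 95.6 CPM, Btbd11 at 829 and 136 CPM, and Mef2c, an activity-linked factor, at 1109 and 309 CPM. Erbb4 was at 13734 CPM in Pvalb and 1393 CPM in Sst nuclei. Each of these genes was higher in Pvalb nuclei in 4 of 4 libraries, as was the listed peptide gene Tac1 (13.0 and 5.43 CPM), while Mef2c is from the list of lineage factors. Eya4 was at 113 CPM in Pvalb and 158 CPM in Sst nuclei, and the channel subunit gene Kcns3 at 98.4 and 128 CPM, higher in Sst nuclei in 3 of 4 libraries.

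**Figure D2:**
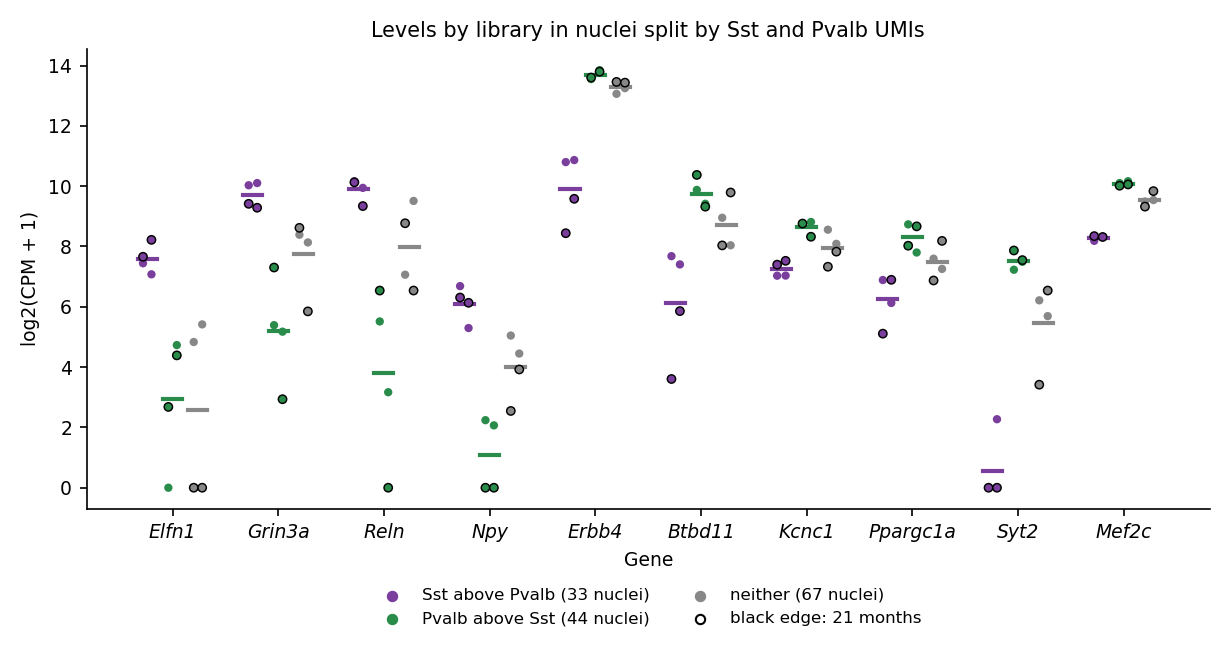
Levels on the log2(CPM + 1) scale (y axis) of 10 genes (x axis) in nuclei with Sst above Pvalb (33), Pvalb above Sst (44) and neither (67), 1 point per library, with short lines at the mean of the 4 log2 values and black edges for 21 months. Elfn1 separates the Sst nuclei from the Pvalb nuclei in every library, and Syt2 and Erbb4 do so in the opposite direction.

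The 67 nuclei with neither transcript were mixed. Lamp5 was detected in 23 of them and in 44 it was not. Across the 144 nuclei Lamp5 was found in 7.69% and 26.9% of young and 23.8% and 5.88% of old nuclei, against 14.5%, 18.2%, 17.9% and 12.03% of Slc17a7 nuclei. At 10000 UMIs per nucleus these shares were 5.56%, 19.4%, 10.0% and 5.88% against 6.25%, 8.32%, 7.14% and 4.46%. As counted, the share was thus below that of Slc17a7 nuclei in the first young and the second old library and above it in the others. At equal depth it was below it in the first young library and above it in the other three, by 1 nucleus or less in the old ones. The 23 nuclei differed from the 44 in other genes. Satb1 was at 2.15 CPM in them (1 UMI) against 255 CPM in the 44 nuclei without Lamp5, and Kcnc2 at 761 against 2892 CPM. Of the genes of the rule, Sox6 was at 110 against 576 CPM and Lhx6 at 125 against 81.5 CPM.

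Genes listed for Lamp5 cells, with Reln and Nos1, showed the opposite order in those 23 nuclei. Egfr, a growth factor receptor, was at 297 against 82.8 CPM, and Id2, an inhibitor of helix-loop-helix factors, at 66.7 against 5.18 CPM. Nos1, the neuronal nitric oxide synthase, was at 185 against 50.5 CPM, and Reln at 729 against 365 CPM. Syt2 was at 2.15 against 82.8 CPM and Elfn1 at 0 against 43.99 CPM. By library the 23 nuclei were 2 and 15 at 3 months and 5 and 1 at 21 months, so these pooled levels rest mostly on the second young library.

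The share of Lhx6 and Sox6 interneurons was 0.354% (exact 95% interval 0.252% to 0.483%) and 0.332% (0.258% to 0.422%) of nuclei in the young libraries. In the old libraries it was 0.233% (0.145% to 0.356%) and 0.259% (0.151% to 0.415%). The intervals cover counting error only. Both old libraries lay below both young ones, with a mean difference of -0.0965 percentage points and p = 0.333 in the exact two-sided permutation test, the smallest p this design allows. Adarb2 interneurons, by comparison, made up 1.01% and 1.36% of young against 1.14% and 1.16% of old nuclei, and their groups overlapped. As a share of nuclei that met the Gad1, Gad2 and Slc17a7 conditions, the Lhx6 and Sox6 nuclei were 20.4% and 14.2% of young against 12.1% and 13.1% of old. A further count kept only nuclei with at least 10000 UMIs and thinned each to 10000, a depth chosen after the data were seen. The class held 20 of 4375 and 20 of 9559 nuclei at 3 months and 7 of 3556 and 4 of 2708 at 21 months. These shares of the deeper nuclei were 0.457% and 0.209% at 3 months and 0.197% and 0.148% at 21 months.

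**Figure D3:**
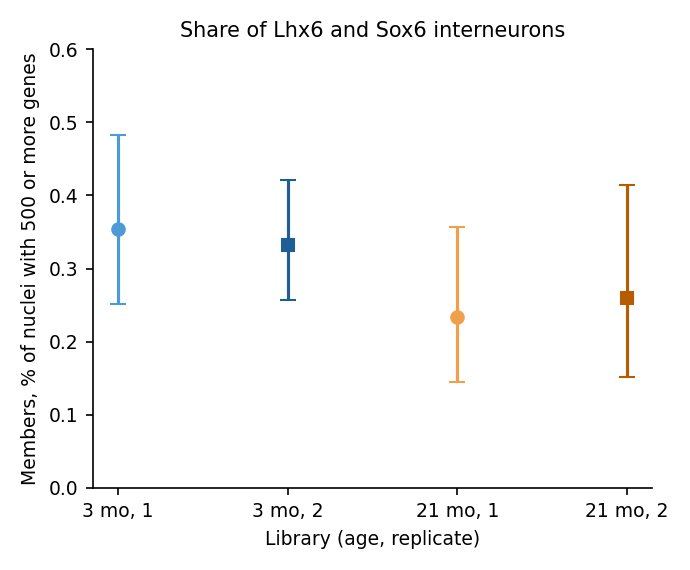
Lhx6 and Sox6 interneurons as a percentage of nuclei with 500 or more genes (y axis) in each hippocampal library (x axis), with exact 95% intervals. The points of the young libraries are 0.354% and 0.332% and those of the old libraries 0.233% and 0.259%, and the intervals overlap.

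Few genes passed the test between 21 and 3 months. The edgeR quasi-likelihood test on counts summed per library called 2 of 7435 genes at a Benjamini-Hochberg adjusted p under 0.05, which is 0.0269% of those tested. One rose (0.0134%) and 1 fell (0.0134%), and 432 genes (5.81%) had an unadjusted p under 0.05. In 34.5% of all genes tested the old and young libraries did not overlap, with 12.9% higher and 21.6% lower at 21 months. In such sums a smaller share of one subtype and less RNA per nucleus of that subtype cannot be told apart. DESeq2 called 3 genes, all lower, which included neither of the 2. Its log2 differences for these 2, Rasgef1b and Grm8, were -2.57 and 1.29 (DESeq2 adjusted p = 0.1305 and 0.361).

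Rasgef1b, which encodes an exchange factor for small GTPases (chromosome 5, 99217426 to 99729065, minus strand, GRCm38), was at 74.0 and 60.3 CPM in young against 6.24 and 14.9 CPM in old libraries. Both old libraries were well under both young ones. It fell by 2.54 on the log2 scale (SE 0.404, edgeR adjusted p = 0.0416). Its UMIs were concentrated in few nuclei. They came from 9 of 39 and 11 of 67 young nuclei and from 3 of 21 and 1 of 17 old nuclei, and 1 nucleus held 61 of the 94 UMIs of the second young library. Without the nucleus of most UMIs in each library it was at 46.9 and 21.7 CPM in young against 4.49 and 0 CPM in old libraries. In the nuclei with more Sst than Pvalb, which numbered 13 and 11 in young and 3 and 6 in old libraries, it was at 167 and 287 CPM in the young libraries and had no UMI in the old ones. The 287 CPM were 75 UMIs, 61 of them from that 1 nucleus. In the nuclei with more Pvalb it ranged from 0 to 20.8 CPM. In the nuclei with neither transcript it was at 13.7 and 8.93 CPM in young against 4.84 and 56.6 CPM in old libraries, and all 8 UMIs of the second old library lay there. Over whole hippocampal libraries it averaged 60.1 CPM at 3 and 57.3 CPM at 21 months.

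Grm8, a presynaptic metabotropic glutamate receptor (chromosome 6, 27275119 to 28135178, minus strand, GRCm38), was at 96.2 and 75.04 CPM in young against 214 and 184 CPM in old libraries. The old libraries were both higher. It rose by 1.30 on the log2 scale (SE 0.209, edgeR adjusted p = 0.0416). It was detected in 10 of 39 and 14 of 67 young nuclei and in 6 of 21 and 9 of 17 old nuclei. In the old libraries 1 nucleus held 60 of 103 UMIs and 1 held 36 of 99. Without the nucleus of most UMIs in each library Grm8 was at 71.6 and 60.8 CPM in young against 95.6 and 132 CPM in old libraries. In nuclei with more Sst than Pvalb it was at 151 and 76.6 CPM in young against 983 and 387 CPM in old libraries, where the 983 CPM were 88 UMIs of 3 nuclei. In nuclei with more Pvalb it ranged from 0 to 29.8 CPM. In the 67 nuclei with neither transcript the order was the opposite. Grm8 was there at 96.2 and 124 CPM in young against 72.6 and 21.2 CPM in old libraries. Of the 3 sets, only the nuclei with more Sst were higher in both old libraries. They were 3 and 6 nuclei in the old libraries and differed by age in Sox6 as given above. Over whole libraries Grm8 averaged 123 CPM at 3 and 149 CPM at 21 months.

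With 1 library left out, the lone library of its age is assumed to vary like the pair of the other age. Neither gene passed without old library 1 (adjusted p = 0.149 for Rasgef1b and 0.136 for Grm8, edgeR) or without old library 2 (0.135 and 0.164). The log2 differences were then -2.05 and -3.34 for Rasgef1b and 1.22 and 1.38 for Grm8. Grm8 also did not pass without ranked doublets (edgeR adjusted p = 0.0511, log2 difference 1.30) or with equal numbers of nuclei per library (0.0976, 1.40), where its difference was about as large. In nuclei with at least 6 UMIs of Lhx6 plus Sox6 the difference was 0.91 (adjusted p = 0.929). That of Rasgef1b was -4.31 without ranked doublets, -4.75 in nuclei with at least 6 UMIs of Lhx6 plus Sox6 and -5.81 in nuclei with at least 2 Lhx6 UMIs, where it did not pass (0.282). The number of called genes was 26 without young library 1, 51 without young library 2, 8 without old library 1 and 4 without old library 2.

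The genes next in order of p did not pass. Npffr1, the receptor of RF-amide peptides, was at 0 and 3.85 CPM in young against 20.8 and 40.9 CPM in old libraries (edgeR adjusted p = 0.147). Its UMIs lay in 0 of 39, 3 of 67, 4 of 21 and 4 of 17 nuclei. In nuclei with more Sst than Pvalb it was at 0 and 19.1 CPM in young against 89.4 and 81.4 CPM in old libraries, and in nuclei with more Pvalb it had no UMI. Cacna1e, the R-type calcium channel, was at 122 and 183 CPM in young against 49.9 and 61.4 CPM in old libraries (adjusted p = 0.145). Its log2 difference moved from -1.41 to -0.24 with equal numbers of nuclei (edgeR adjusted p = 0.975). In nuclei with at least 6 UMIs of Lhx6 plus Sox6 it was -2.82 (0.0251). Other genes among the first 14 follow, 1 with only a RIKEN identifier left out. Lrmda, Gpam and Adam12 had log2 differences of 1.24, 1.74 and 1.66. Those of Fstl4, Plppr1, Adgrg6 and Rgs9 were -2.01, -1.26, -4.28 and -2.51 (edgeR adjusted p = 0.147 to 0.189 for all of these). Over whole libraries Lrmda averaged 69.0 CPM at 3 and 158 CPM at 21 months, and Gpam 40.7 and 64.9 CPM. Adam12 did not rise there, at 43.9 and 39.9 CPM. In the young libraries 1 nucleus held 15 of 15 and 1 held 31 of 40 Adgrg6 UMIs. Without the nucleus of most UMIs in each library, Adgrg6 was at 0 and 5.91 CPM in young and 0 CPM in both old libraries. Adam12 was then at 5.12 and 11.1 CPM in young against 13.3 and 14.7 CPM in old libraries.

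Tshz3, a zinc finger factor, was at 107 and 80.2 CPM in young against 316 and 184 CPM in old libraries, with an edgeR adjusted p of 0.145. Slc6a11, the GABA transporter GAT-3, was at 9.87 and 14.1 CPM in young against 54.05 and 33.5 CPM in old libraries (0.152). GAT-3 is best known from astrocytes, and the astrocyte markers summed to 437 and 528 CPM in young against 730 and 510 CPM in old nuclei. Their part in that result was not tested. Over whole libraries Tshz3 averaged 49.0 CPM at 3 and 66.1 CPM at 21 months, and Slc6a11 32.8 and 53.7 CPM. Mbp, a myelin protein gene, was at 18.5 and 36.6 CPM in young against 4.16 and 3.72 CPM in old libraries (0.202), while the summed oligodendrocyte markers were at 51.8 and 151 CPM in young against 39.5 and 29.8 CPM in old nuclei.

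**Figure D4:**
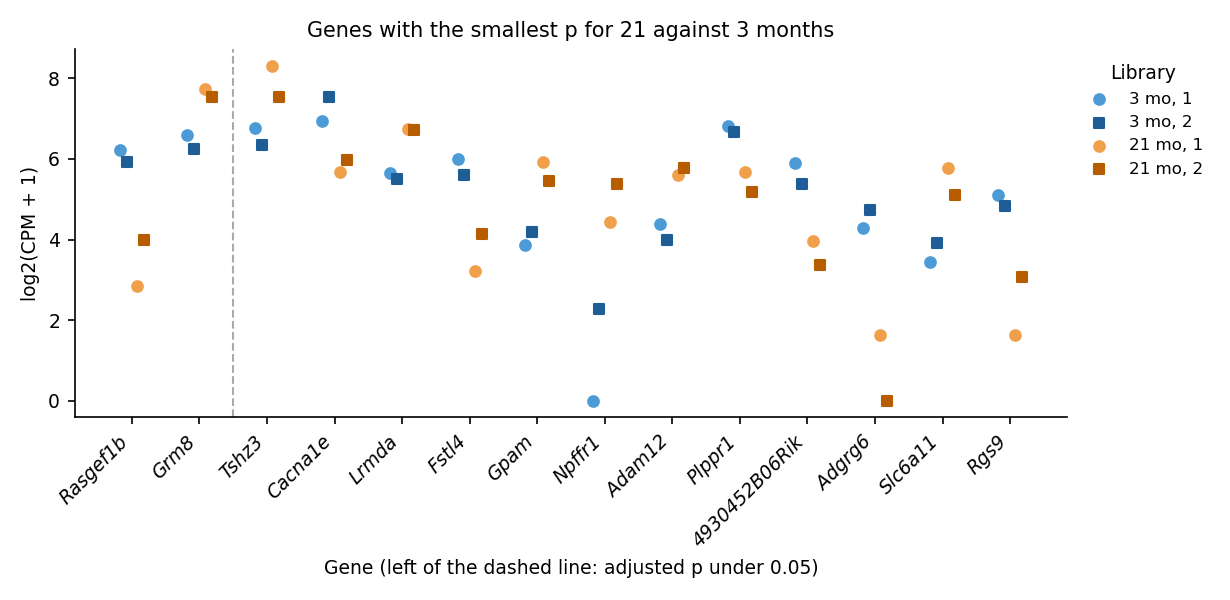
Levels on the log2(CPM + 1) scale (y axis) of the 14 genes with the smallest p for age (x axis), 1 point per library, with 3 months in blue and 21 months in orange. Rasgef1b and Grm8, left of the dashed line, had an adjusted p under 0.05, and the others did not pass although their libraries do not overlap by age.

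Lhx6 and Sox6, by which the nuclei were chosen, are given as a description. Lhx6 was at 61.7 and 77.6 CPM in young against 83.1 and 61.4 CPM in old libraries, and the groups overlapped. Sox6 was at 701 and 484 CPM in young against 422 and 372 CPM in old libraries. Sst was at 51.8, 22.4, 6.24 and 24.2 CPM and Pvalb at 33.3, 30.8, 37.4 and 13.0 CPM in young libraries 1 and 2 and old libraries 1 and 2, and both sets overlapped by age. With the genes of the rule left out, none of 8 tested genes of the lineage factor list and none of 5 tested genes of GABA synthesis and transport passed.

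Of 22 tested glutamate receptor genes, 1 rose, the Grm8 described above, and 0 fell, beside 0.0134% of all genes tested in each direction, with a median log2 difference of 0.11 against 0.0072 over all genes tested. None of 15 tested GABA receptor genes, 19 potassium channel genes and 14 sodium and calcium channel genes passed. Of 8 tested perineuronal net genes and 19 genes of synapse adhesion none passed either. Among 19 tested chaperone genes, which help proteins fold, 3 had a log2 difference above 0, against 51.0% of all genes tested, with a median of -0.34, and none passed. The endoplasmic reticulum chaperone Hsp90b1 was at 74.0 and 75.7 CPM in young against 31.2 and 39.1 CPM in old libraries (edgeR adjusted p = 0.522). The heat shock cognate Hspa8 was at 69.1 and 63.5 CPM in young against 37.4 and 24.2 CPM in old libraries (0.551).

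The age effect was then compared between the Lhx6 and Sox6 nuclei and the Adarb2 nuclei of the same libraries. No gene passed the edgeR interaction test with library as a block (0 of 11308, 0%), 480 genes (4.24%) had an unadjusted p under 0.05, and DESeq2 called 0. Rasgef1b had the smallest p. In Adarb2 nuclei it was at 65.9 and 78.2 CPM in young against 102 and 81.9 CPM in old libraries. Its age effect was lower in the Lhx6 and Sox6 nuclei by 2.89 on the log2 scale (SE 0.444), with an adjusted p of 0.465. Grm8 was at 240 and 317 CPM in the young and 442 and 246 CPM in the old Adarb2 nuclei, and its interaction was 1.03 (SE 0.316, adjusted p = 1).

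Female and male nuclei of the class could be separated by Xist and 4 Y-linked genes, with 69 female and 47 male nuclei. The edgeR test with library as a block called 4 of 5123 genes (0.0781%), and 4.59% had an unadjusted p under 0.05. The called genes were Xist and Tsix, an overlapping antisense transcript, in the female direction (0.039% of genes tested), and Uty and Eif2s3y in the male direction (0.039%), so they were the genes used for the call or their overlap.

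Lhx6 interneurons of the hippocampus were last set beside those of the caudate putamen, where the same lineage gives rise to striatal Sst and to Pvalb or Pthlh cells. Medium spiny neurons also carry Gad1 and Gad2, so in both regions nuclei needed at least 2 Lhx6 UMIs, fewer than 10 UMIs of Meis2, a factor of medium spiny neurons, and a place outside the ranked doublets. This gate was adopted after the intended one left 0 to 5 nuclei per library. It held 11 and 36 young and 11 and 8 old hippocampal nuclei, and 30 and 42 young and 22 and 26 old striatal nuclei. The hippocampal nuclei were deeper, with library medians of 20563.5 to 31910.5 UMIs against 13847 to 18154 in the striatal ones. The edgeR test over 8 libraries called 670 of 6446 genes (10.4%), of which 362 (5.62%) were higher in the hippocampus and 308 (4.78%) lower. As for age, a different mix of subtypes and a different level per nucleus of a subtype cannot be told apart in these sums. The second young striatal library was counted with another Cell Ranger version than the rest. Fewer genes were called without it, as was so without any other 1 striatal library. Cell Ranger counts intronic reads by default from version 7.0.0 on, and the part of this in the differences was not tested beyond those fits.

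Genes of the lineage differed in both directions. Of 12 tested genes of the lineage factor list besides Lhx6 and Sox6, 4 were higher in the hippocampal nuclei (Npas1, Maf, Mef2c and Satb1). Another 5 were lower (St18, Lhx8, Etv1, Nkx2-1 and Dlx6os1, a noncoding RNA). The median log2 difference of the 12 was -0.23 against -0.016 over all genes tested. Lhx8, which in striatum marks cells that keep an early eminence program, had no UMI in the hippocampal nuclei and was at 51.4, 43.4, 42.4 and 29.0 CPM in the striatal libraries. Nkx2-1, the factor that specifies the medial eminence and is shut off in cells migrating to cortex, was at 0, 0, 0 and 6.15 CPM in the hippocampal nuclei of young libraries 1 and 2 and old libraries 1 and 2. In the striatal nuclei it was at 19.3, 26.5, 34.9 and 26.3 CPM. The 2 regions did not overlap for either gene (adjusted p = 8.08e-05 and 0.00419, edgeR). The same was so in 16.6% of all genes tested, 5.94% higher and 10.7% lower in the hippocampus. Lhx8, Nkx2-1, Etv1, St18 and Kit had few or no UMIs in the hippocampal nuclei. Such genes pass the low-count filter only through the striatal libraries, so the direction of their difference was set by passing it.

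Etv1 and St18 were low in the hippocampal and high in the striatal nuclei. Etv1, an ETS factor, averaged 4.93 ± 5.22 CPM (SD, n = 4) in hippocampal and 247 ± 50.4 CPM in striatal nuclei (edgeR adjusted p = 1.55e-07). St18, a zinc finger factor, averaged 6.35 ± 2.00 and 274 ± 33.03 CPM (adjusted p = 2.56e-08). Satb1 averaged 148 ± 81.1 and 38.4 ± 17.2 CPM (adjusted p = 0.0053), and Mef2c 650 ± 199 and 233 ± 11.2 CPM (adjusted p = 0.000274).

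Among the genes with the greatest differences by rule, Reln was at 787, 605, 601 and 434 CPM in the hippocampal and 27.9, 24.1, 22.4 and 71.1 CPM in the striatal libraries. Its log2 difference was 4.23 (SE 0.279, edgeR adjusted p = 8.2e-07), although over whole libraries Reln was lower in the hippocampus by a log2 difference of -3.39. Adamtsl1, a matrix protein gene, averaged 333 ± 114 against 7.35 ± 6.88 CPM. Galnt18, a glycosyltransferase gene, averaged 189 ± 63.2 against 23.4 ± 17.3 CPM, and the delta opioid receptor gene Oprd1 58.5 ± 17.7 against 5.29 ± 6.49 CPM. Oprd1 did not pass when ranked doublets were kept (edgeR adjusted p = 0.0931).

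Genes lower in the hippocampal nuclei included Kit, a growth factor receptor, with 0, 5.72, 0 and 0 CPM in the hippocampal and 311, 361, 409 and 379 CPM in the striatal libraries (log2 difference -8.31, edgeR adjusted p = 3.02e-08). Megf11, a receptor of the cell surface, averaged 8.11 ± 9.40 against 287 ± 46.9 CPM, and Pthlh, a peptide gene of striatal Pvalb cells, 1.63 ± 1.88 against 41.2 ± 8.11 CPM. Hs3st4, a heparan sulfate sulfotransferase gene, averaged 22.7 ± 42.9 against 574 ± 132 CPM (edgeR adjusted p = 0.0342). That call was lost with no low-count filter (0.0925), with the replicate block (0.0733), without old hippocampal library 1 or 2 (0.0795 and 0.0819) and without any 1 striatal library (0.0926 to 0.118). Its log2 difference was -7.14 and ranged from -7.29 to -6.94 in those fits.

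Glutamate receptor genes tended to the hippocampal side, with 8 of 22 tested higher and 1 lower, beside 5.62% and 4.78% of all genes tested, and a median log2 difference of 0.91 against -0.016. Gria1 averaged 6713 ± 1487 against 2779 ± 245 CPM (log2 difference 1.39, edgeR adjusted p = 7.58e-05). The NMDA receptor subunit gene Grin2a averaged 2397 ± 907 against 454 ± 83.6 CPM and the kainate receptor gene Grik2 2140 ± 320 against 765 ± 199 CPM. Grm3 was the lower one, at 59.7 ± 6.41 against 255 ± 60.9 CPM. Whole hippocampal libraries were also higher than striatal ones for Gria1 and Grin2a, by 1.17 and 1.99 on the log2 scale, and for Grik2 they were not (-0.20).

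Potassium channel genes went both ways, with 3 of 19 tested higher (Kcnmb2, Kcnc2 and Kcns3) and 4 lower (Kcnq5, Kcnab1, Kcnip1 and Kcnq3). The same shares of all genes, 5.62% higher and 4.78% lower, stand beside this and the following lists. Kcnc2 averaged 2255 ± 478 against 484 ± 171 CPM (edgeR adjusted p = 7.24e-05), while its relative Kcnc1 averaged 250.0 ± 43.6 against 317 ± 16.2 CPM and did not pass (0.575). Of 14 tested GABA receptor genes 3 were higher, Gabrb2 and Gabbr2 among them, and 2 were lower, Gabra2 and Gabrd. Among 8 tested perineuronal net genes, Tnr, Vcan and Cntn1 were higher and Adamts5, a protease that cuts proteoglycans, was lower, at 2.94 ± 3.56 against 69.0 ± 15.1 CPM. None of 4 tested genes of GABA synthesis and transport besides Gad1 and Gad2 and none of 18 chaperone genes passed.

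**Figure D5:**
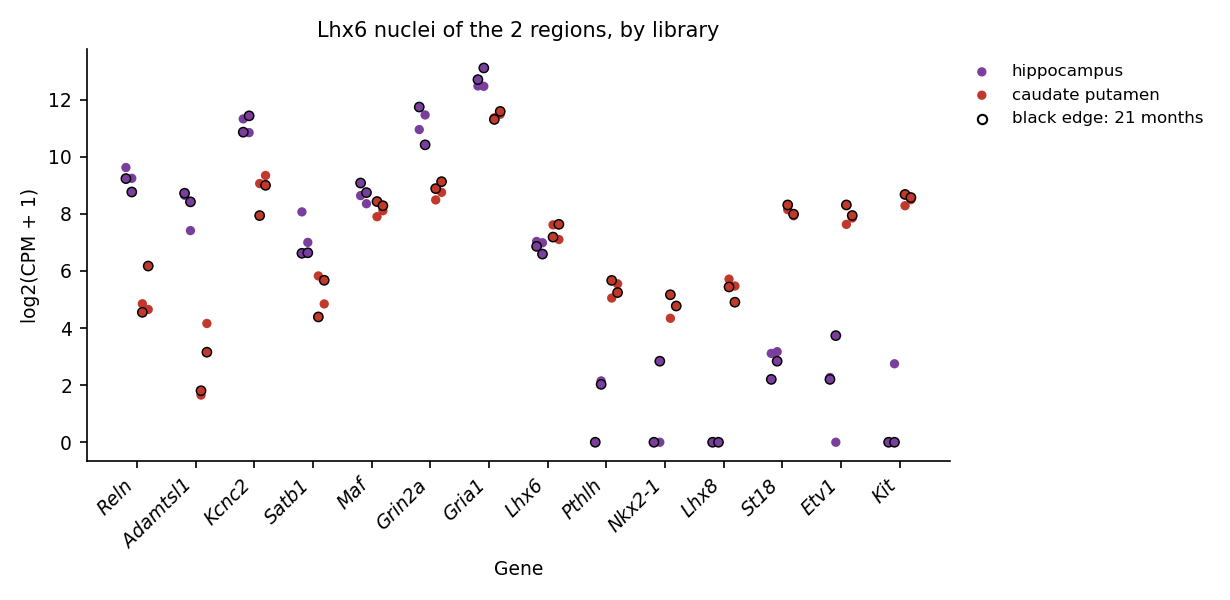
Levels on the log2(CPM + 1) scale (y axis) of 14 genes (x axis) in Lhx6 nuclei of the hippocampus and the caudate putamen, 1 point per library, with black edges for 21 months. Reln, Kcnc2 and Grin2a lie higher in all 4 hippocampal libraries, and Lhx8, St18, Etv1 and Kit lie higher in all 4 striatal libraries.

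Markers of other cells also differed between the 2 sets of nuclei. The 7 oligodendrocyte markers, of which St18 is 1, summed to 33.8 to 39.6 CPM in hippocampal and 356 to 419 CPM in striatal libraries. The 6 astrocyte markers summed to 36.9 to 287 against 645 to 1156 CPM, with Slc4a4 and Slc1a3 called lower in the hippocampal nuclei and Aqp4 at 0 in the striatal ones. The 8 medium spiny markers summed to 1105 to 1775 against 1530 to 1835 CPM. Pde10a averaged 1447 and 1437 CPM of that, while Penk and Rgs9 were called lower in the hippocampal nuclei (0.858 against 48.5 CPM and 17.9 against 50.9 CPM), as was Meis2, which the gate limits. The 6 markers of oligodendrocyte precursors summed to 299 to 622 against 94.8 to 193 CPM. Both of those tested, Lhfpl3 and Vcan, were called higher, and Pdgfra and Olig1 were at 0 in the hippocampal nuclei. The part of these cells in the regional differences was not tested. Sst averaged 27.6 ± 23.1 CPM in hippocampal and 26.6 ± 17.9 CPM in striatal nuclei. Pvalb averaged 15.96 ± 12.4 and 20.9 ± 6.97 CPM, and neither gene passed. The 13 genes listed for Sst cells summed to 1648 to 3366 CPM in hippocampal and 915 to 1143 CPM in striatal nuclei. All 8 tested had a log2 difference above 0, against 48.4% of all genes tested, and Reln alone was called. Those listed for Pvalb cells summed to 3851 to 11514 against 9822 to 11984 CPM, with 3 of 11 tested called higher and 1 lower. The part of the subtype mix in the regional differences was not tested.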

How the data were processed

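The deposited files held raw counts of UMIs per gene and barcode, 32285 genes in each library, with no normalization by the authors. Per the file headers, Cell Ranger 6.1.2 made 7 libraries and 7.0.0 the other, a caudate putamen library; the submitters' processing notes name Cell Ranger 4.0.0 and mm10. Whether intronic reads were counted is not given in the sources used here. Coordinates come from GENCODE vM21 (GRCm38), which matched 32158 gene identifiers.

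Nuclei were gated on UMIs as described, and their counts were summed per library. Hippocampal libraries held 67205436 to 234811422 UMIs. The sums went into edgeR (version 4.0.16 under R 4.3.3, with TMM, filterByExpr and robust quasi-likelihood fits), with Benjamini-Hochberg adjustment over all genes tested and a threshold of 0.05. The age fit used 1 mean per age, the interaction and sex fits had library as a block, and the regional fit had 1 mean per region and age. DESeq2 1.42.0 was an alternative. Doublets were ranked with Scrublet in scanpy 1.11.5 at an expected share that grows with the number of barcodes. Shares were compared with exact permutation tests and given exact (Clopper-Pearson) 95% intervals.

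A minimum of 20 nuclei per library had been set for the age fit, and the second old library, with 17, was kept. The fit without it is given. The regional and sex fits also used sums of fewer nuclei. Hippocampal libraries held 11, 36, 11 and 8 nuclei in the regional fit, and the sums by sex held 6 to 32 nuclei. The intended gate for the regional comparison needed fewer Pde10a than Gad1 and Gad2 UMIs and left too few nuclei. Counts with known changes were simulated with 1 dispersion for all genes, and changes were placed only in genes with a mean above 20 UMIs. At an absolute log2 change of 2, edgeR recovered 96% of genes in the age design. There 200 of 7185 genes were changed and 10 others called. In the age by class design it recovered 71%, with 200 of 11030 changed and 7 others called. These shares do not measure recovery in the real counts, whose dispersion varies from gene to gene. Genes named for age are the called ones and those next by p, without genes known only by an identifier. Which of those next by p are described at length was chosen after their values were seen. Genes named for region are the greatest called differences in each direction whose libraries do not overlap, with at least 10 CPM in the higher region and no shift over 1 log2 in the same direction in whole libraries. Members of the gene lists are named by their calls or smallest p. The class, its rule and the gene lists were chosen with earlier results of these data known. Alternatives covered scaling, the low-count filter, DESeq2, leaving out each library, doublets, stricter gates, equal nuclei and replicate blocks. A few genes of these lists are not reported here by name.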

Additional observations from a re-analysis of the deposited data

How the results depend on the processing

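The 2 age calls were the result most open to the settings. With no low-count filter 63 genes were called, without ranked doublets 1 (Rasgef1b), and 20 with the numbers crossed between ages; leaving out 1 library gave 4 to 51. With equal numbers of nuclei 2 genes were called. Grm8 was tested and was not among them, and Rasgef1b was not tested there, since the low-count filter left it out. The stricter gate of at least 2 Lhx6 UMIs, the fit over all 8 libraries and the sum with Adarb2 interneurons each gave 0 calls by edgeR, with 181, 411 and 676 genes at an unadjusted p under 0.05. The replicate numbers did not pair the libraries of the 2 ages (correlation of deviations -0.108, a single value with 2 libraries per age), and pairing between regions was not checked. With the replicate block 649 genes were called by region and 3 by age, neither Rasgef1b nor Grm8 among them (edgeR adjusted p = 0.0651 for each). The log2 differences of these 2 genes were then -2.55 and 1.29. For the interaction, no filter gave 32 calls and leaving out 1 library 0 to 2. For region, no filter gave 1023 calls, DESeq2 509 and leaving out 1 library 486 to 769. For sex, no filter gave 50 calls and leaving out 1 library 1 to 4.

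The difference in share was -0.161 points among nuclei with at least 10000 UMIs thinned to 10000, and -4.72 points of nuclei with Gad1 and Gad2. It was -0.125 points without ranked doublets, and -0.110 to -0.0836 with 1 library left out. For the Sst group it was -0.0857 points at 1 Sst UMI and -7.37 to -1.48 with 1 library left out. Thinning to 3000 UMIs left no nucleus in the class, and thinning to 4000 none in the Sst group, so neither gave a value. An age fit of the Sst group alone was not run, since no library held 20 such nuclei.

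In the sum with Adarb2 interneurons the age effect of Rasgef1b turned to 0.078 and that of Gm32647, a predicted gene that did not pass, to 1.13. The regional difference of Sst, which did not pass, also changed sign. It was 0.030 (-0.50 to 3.03 with 1 library left out) and turned to -0.0069 with no filter, -0.49 without young hippocampal library 1, -0.37 without old hippocampal library 2, -0.50 without old caudate putamen library 1 and -0.012 with Meis2 under 3 UMIs. The causes were not tested. The old libraries, with 21 and 17 nuclei and 481077 and 537553 UMIs, were the shallowest of the age comparison. The thinning to 10000 UMIs, the crossed numbers, the sum with Adarb2 interneurons, the Sst limit of 1 UMI, the Meis2 limit of 3, the limit of 6 UMIs of Lhx6 plus Sox6 and the regional fit with doublets kept were chosen after the data were seen.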
